A study of Mus musculus with 6 samples.

Results

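The 10 genes described here encode the ubiquitin ligases of muscle wasting and the transcription factors that control them. They are Fbxo32, Trim63, Fbxo30, Fbxo31, Traf6, Nedd4, Cblb, Foxo1, Foxo3 and Klf15. They were chosen by name, with earlier results of these data known, and carry 15 of the 55681 gene probes of the array. All 10 were among the 20906 genes tested, of which 13845 have a gene symbol. The rest are counted as genes under their accession. Each gene was represented by 1 probe, and 5 of the genes have a second probe that is reported beside it.

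RNA came from the calf muscle gastrocnemius, which is made mostly of fast fibres, of male mice, with 3 samples aged 13 weeks (young) and 3 samples aged 25 months (old). The labels name no treatment or engineered allele for either group, the strain is not given in the sources used here, and the old muscle is described as atrophied by age. Each sample was hybridised to its own single-colour array, all on 1 slide. The labels number the samples without saying that each is a separate animal, so a p-value here reflects the spread among these 6 arrays alone, and some of that spread may be technical.

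Muscle mass reflects the balance between protein synthesis and breakdown, and much of the breakdown runs through the proteasome. A ubiquitin ligase attaches ubiquitin to chosen proteins and so marks them for that route. In wasting muscle the Foxo transcription factors, held outside the nucleus by insulin and Akt signalling when nutrients are ample, enter the nucleus and switch on ligase genes. Glucocorticoids act on the same genes through their receptor and through Klf15. Fbxo32 (also called atrogin-1 or MAFbx) and Trim63 (MuRF1) are the best-known of these ligases and rise in fasting, disuse, denervation and glucocorticoid excess.

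Of the 10 genes, 9 have an entry in the RefSeq promoter table (GRCm38.p6), and the 250 bases before the transcription start were searched for 4 motifs on both strands. The forkhead motif GTAAACA, to which Foxo factors bind, was found in 3.17% of the 32851 windows of the table, and the glucocorticoid receptor half-site AGAACA in 16.1%. CACGTG, the E-box read by clock factors, was found in 6.02% and CACCC, read by Krüppel-like factors, in 52.0%. The 3 windows below belong to genes with a wide spread between arrays and are shown 5′ to 3′ on the gene's strand. Capitals mark the forkhead motif, the receptor half-site or the E-box.

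Trim63, chr4:134314870-134315119, plus strand: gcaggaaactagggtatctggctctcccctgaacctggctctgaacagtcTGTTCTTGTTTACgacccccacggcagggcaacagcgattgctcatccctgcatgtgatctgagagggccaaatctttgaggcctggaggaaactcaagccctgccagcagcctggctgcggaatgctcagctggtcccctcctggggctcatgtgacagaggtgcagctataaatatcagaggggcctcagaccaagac
Klf15, chr6:90462326-90462575, plus strand: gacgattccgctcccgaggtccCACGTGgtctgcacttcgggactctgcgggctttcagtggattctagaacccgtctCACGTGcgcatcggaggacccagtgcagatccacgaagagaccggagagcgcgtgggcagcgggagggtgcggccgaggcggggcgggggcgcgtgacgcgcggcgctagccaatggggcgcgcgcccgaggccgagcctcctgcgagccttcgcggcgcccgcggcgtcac
Foxo1, chr3:52268087-52268336, plus strand: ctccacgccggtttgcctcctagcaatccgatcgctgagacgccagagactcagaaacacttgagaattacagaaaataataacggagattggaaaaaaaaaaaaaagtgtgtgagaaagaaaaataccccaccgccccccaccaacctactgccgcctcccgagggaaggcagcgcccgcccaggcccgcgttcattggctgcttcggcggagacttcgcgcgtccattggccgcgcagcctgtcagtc

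In the Trim63 window the reverse complements of the receptor half-site, TGTTCT, and of the forkhead motif, TGTTTAC, lie directly side by side. The half-site starts 200 bases and the forkhead motif 194 bases before the transcription start, and they do not overlap. Both motifs occur in 0.691% of all windows, and the joined run occurs in 1 window of the 32851, that of Trim63. The run searched for has the order and spacing found in the Trim63 window, so a match there was certain. The count therefore does not measure how unusual such an arrangement is. Klf15 holds 2 copies of the E-box, which start 228 and 172 bases before its start, and 1 CACCC match. The Foxo1 window holds none of the 4 motifs. Among the other windows, Fbxo31 holds 4 CACCC matches, and of the 2 windows of Nedd4 the first holds 3 CACCC matches and the second 1 receptor half-site. Fbxo30, Traf6, Cblb and Foxo3 hold none of the 4 motifs in this stretch. A match is a description of the letters and does not show that a factor binds there.

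The question was whether these genes differ between old and young muscle, and none of the 10 passed. Fbxo32 and Trim63, the ligases most often used as marks of wasting, were 1.17-fold and 1.51-fold higher in old muscle on average, less than the spread between arrays of the same age. Klf15 was 1.36-fold lower, again less than that spread, and the means of Foxo1 differed by 1.01-fold. Foxo3, well above background on 2 young arrays and 1 old array, gave no firm fold. By limma's moderated test 0 of the 10 had a Benjamini-Hochberg adjusted p under 0.05, over all genes tested, with values from 0.521 for Foxo3 to 0.996 for Foxo1. Of all genes tested 0.249% passed, 0.191% as higher and 0.0574% as lower in old muscle (40 and 12 of 52 genes). At an unadjusted p under 0.05 the count was again 0 of 10, against 14.8% of all genes, and limma's trend and robust settings also called 0. In 0 of the 10 were the old and young values apart without overlap, against 22.3% of all genes. The median difference of the 10 was -0.03 on the log2 scale and that of all genes -0.08, with 3 of the 10 positive and 7 negative.

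**Figure D1:**
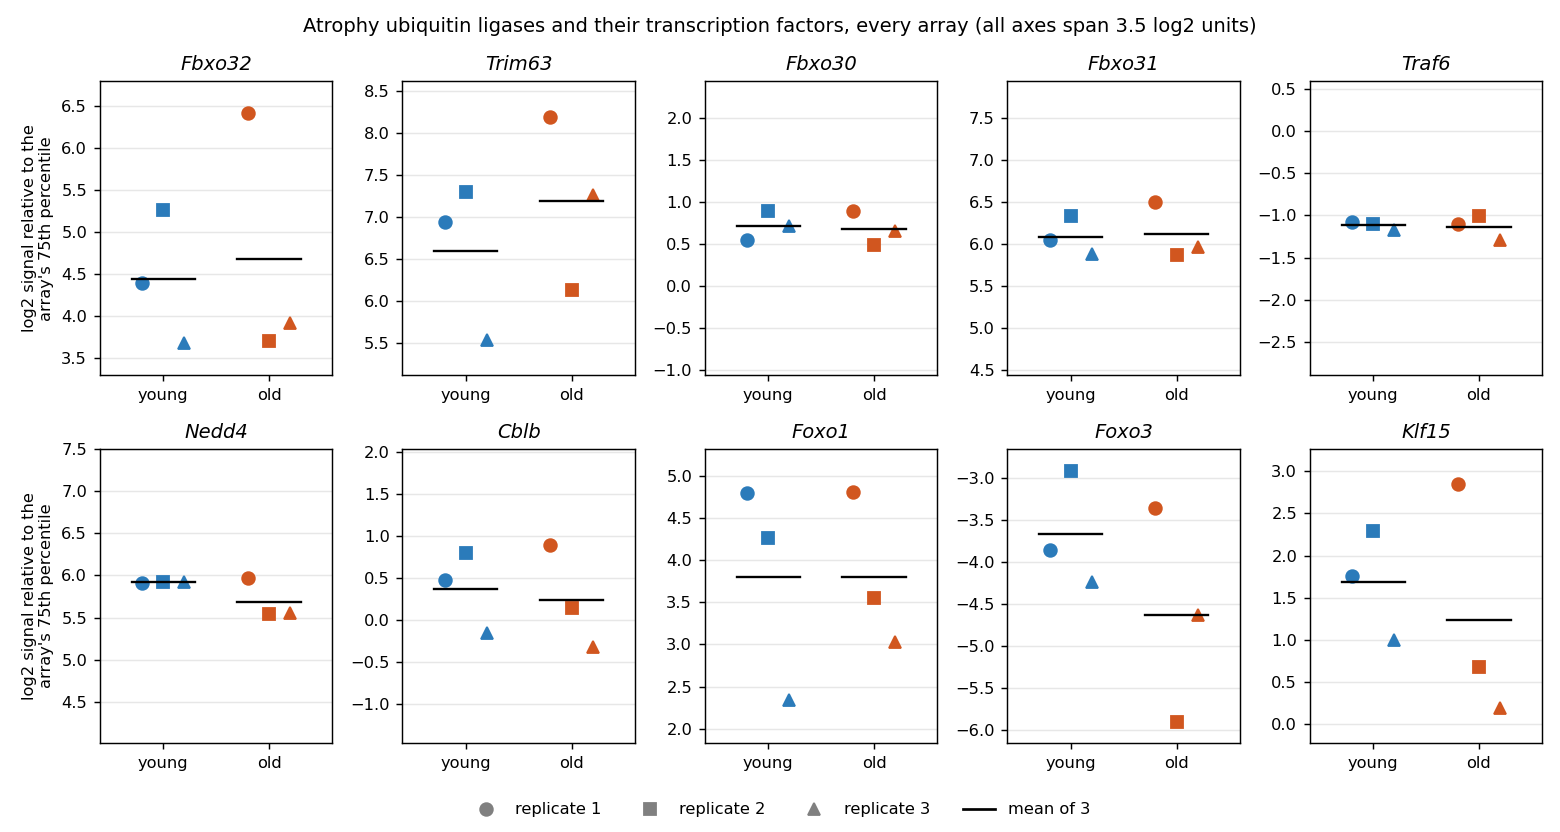
Signal of each of the 10 genes on every array (log2, relative to the array's 75th percentile; each panel spans 3.5 log2 units at its own level). Blue points are young and orange points old arrays, symbols mark the replicate and black lines the mean of 3; in Fbxo32, Trim63, Klf15 and Cblb old replicate 1 is the highest point, and in Fbxo32, Trim63 and Foxo1 young replicate 3 is the lowest.

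All values below are log2 signals relative to the 75th percentile of the same array, so that 1 unit is a 2-fold step. Levels of different genes come from different probes and were not compared. Differences are old minus young with the standard error of the fit (SE) and 3 arrays per age.

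Fbxo32 encodes the F-box subunit that brings targets such as MyoD to its ligase complex. Its values were 4.39, 5.26 and 3.67 in young replicates 1 to 3 and 6.41, 3.69 and 3.91 in old replicates 1 to 3. Old replicate 1 lay above every young array, while old replicates 2 and 3 lay at the level of the lowest young array. The mean was 4.44 ± 0.79 (SD, n = 3) in young and 4.67 ± 1.51 (SD, n = 3) in old muscle, a difference of 0.23 ± 0.76 with a 95% interval from -1.58 to 2.05. That interval includes a 3.00-fold decrease and a 4.13-fold increase. Old replicate 1 exceeded the mean of old replicates 2 and 3 by 6.09-fold, and the 3 young arrays themselves spanned 3.00-fold.

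The probe of Fbxo32 is printed 10 times on each array, which shows how exactly 1 hybridisation measured it. The signal of its 10 spots ran from 2965 to 3260 on young replicate 3 and from 23705 to 33563 on old replicate 1. The coefficient of variation among the 10 spots was 3.09% to 4.16% on the other 5 arrays and 9.03% on old replicate 1. These signals are not scaled between arrays, and repeat spots show the error within 1 hybridisation only.

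Trim63 encodes a RING-finger ligase of the sarcomere that acts on thick-filament proteins. Its values were 6.94, 7.30 and 5.54 in young and 8.19, 6.13 and 7.26 in old replicates 1 to 3. Old replicate 1 was again the highest and young replicate 3 the lowest, but old replicate 3 lay among the upper young arrays, unlike for Fbxo32. The difference was 0.60 ± 0.63 (95% interval -0.90 to 2.09; adjusted p = 0.679), and young replicates 1 and 2 averaged 2.99-fold above young replicate 3. The second probe gave 5.49, 5.70 and 4.38 in young and 6.93, 4.90 and 5.51 in old, with the same highest and lowest arrays and a difference of 0.59.

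Fbxo30 (MUSA1) and Fbxo31 encode 2 further F-box proteins, the first induced by Foxo factors in denervated or fasted muscle. Fbxo30 had 0.55, 0.89 and 0.71 in young and 0.89, 0.49 and 0.65 in old replicates. The ages overlapped fully, with a difference of -0.04 ± 0.18 (95% interval -0.47 to 0.39). Fbxo31 had 6.05, 6.34 and 5.89 in young and 6.50, 5.87 and 5.97 in old, with a difference of 0.03 ± 0.23 (95% interval -0.52 to 0.57). Over the 6 arrays Fbxo30 spanned 1.32-fold and Fbxo31 1.55-fold, far less than Fbxo32 at 6.66-fold and Trim63 at 6.27-fold. Their second probes gave differences of 0.40 for Fbxo30 and -0.23 for Fbxo31, so the sign of these small differences depended on the probe. In both probes of both genes the value on old replicate 1 was above that gene's mean over the 6 arrays.

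Traf6, Nedd4 and Cblb encode ligases with work outside wasting as well. Traf6 joins ubiquitin chains in inflammatory signalling, Nedd4 belongs to the HECT family, and Cblb acts on the insulin receptor substrate. Traf6 had -1.07, -1.11 and -1.17 in young and -1.10, -1.01 and -1.29 in old replicates, a difference of -0.02 ± 0.16. It was the steadiest of the 10, and its 95% interval from -0.39 to 0.35 leaves room for a change of at most 1.31-fold either way.

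Nedd4 had 5.91, 5.93 and 5.92 in young and 5.97, 5.54 and 5.56 in old replicates. The young arrays lay within 0.02 of one another, old replicate 1 lay just above them, and old replicates 2 and 3 lay 0.38 and 0.36 below their mean. The difference was -0.23 ± 0.18 (adjusted p = 0.571) over all arrays and -0.37 ± 0.16 without old replicate 1 (adjusted p = 0.289 by limma). Cblb had 0.48, 0.79 and -0.16 in young and 0.89, 0.14 and -0.32 in old, a difference of -0.14 ± 0.37. Its second probe was well above background on 1 young and 2 old arrays and gave a difference of 1.43, so the probes of Cblb disagreed in sign and the dim one has little weight.

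**Figure D2:**
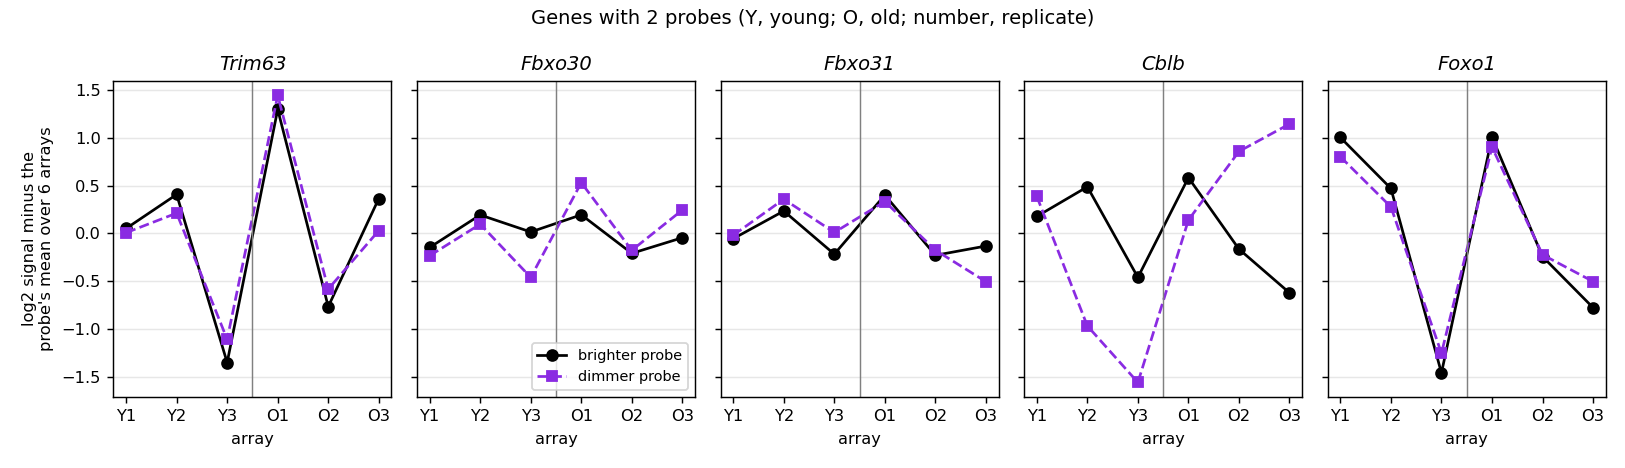
The 5 genes with 2 probes, each probe as log2 signal minus its own mean over the 6 arrays. The probes of Trim63 and of Foxo1 follow one another from array to array, with the lowest value on young replicate 3 in all 4 probes, while those of Cblb part on several arrays.

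Among the transcription factors, Foxo1 had 4.81, 4.27 and 2.34 in young and 4.81, 3.56 and 3.02 in old replicates. The widest gap lay within the young group, where replicates 1 and 2 averaged 4.59-fold above replicate 3, and all 3 old values fell inside the young range or level with its top. The difference was -0.01 ± 0.71 (95% interval -1.70 to 1.69), and the second probe gave 0.12. A difference near 0 here comes with an interval that reaches from 3.25-fold lower to 3.22-fold higher.

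Foxo3 was dim. It was well above background on young replicates 1 and 2 and on old replicate 1 only, so its values on the other 3 arrays are uncertain in size. They were -3.86, -2.92 and -4.24 in young and -3.36, -5.90 and -4.63 in old replicates. Old replicate 1 lay inside the young range and the other 2 old arrays below it, with a difference of -0.96 ± 0.65 (adjusted p = 0.521). The size depended on the settings, at -0.24 ± 0.20 with normexp background correction and -0.33 ± 0.52 without old replicate 2. Klf15, a zinc-finger factor that glucocorticoids induce and that promotes amino acid breakdown, was measured on every array. It had 1.75, 2.30 and 1.001 in young and 2.85, 0.67 and 0.19 in old. Old replicate 1 lay above all young arrays and old replicates 2 and 3 below all of them, a 5.34-fold gap within the old group, and the difference was -0.45 ± 0.70 (95% interval -2.11 to 1.22).

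**Figure D3:**
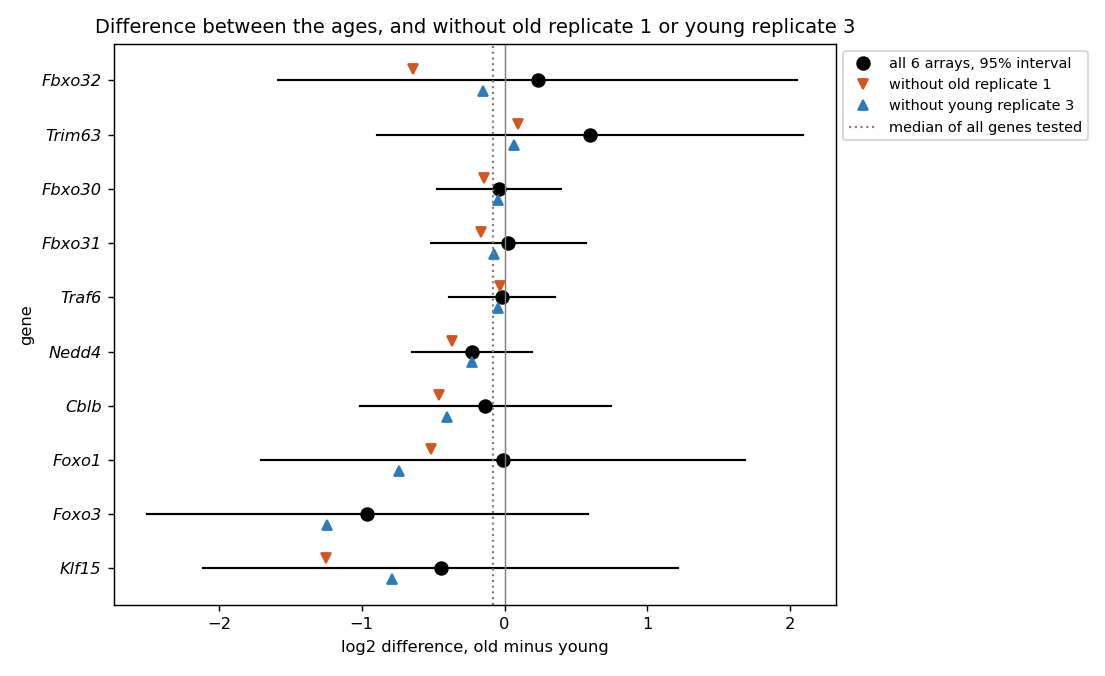
Log2 difference between old and young muscle for each gene. Black points and bars give the estimate from all 6 arrays with its 95% interval, which includes 0 for all 10 genes; orange triangles leave out old replicate 1, blue triangles young replicate 3, and the dotted line is the median of all genes tested (-0.08). Foxo3 has no orange triangle because it was not tested without that array.

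The same arrays stood high or low in one gene after another. The 10 genes were put forward with their shared variation in view, so the counts that follow are a description. Old replicate 1 was the highest of the 6 arrays for 8 of the 10 genes, where it was the highest for 15.4% of all genes tested. For Fbxo30 it was level with young replicate 2, and for Foxo1 with young replicate 1. It lay above the gene's own mean in 10 of 10, though by only 0.02 for Traf6. The median deviation of all genes on that array was -0.04. The exceptions to the first count were Traf6, highest on old replicate 2, and Foxo3, highest on young replicate 2. That count rests on 1 probe per gene. The second probe of Fbxo31 was highest on young replicate 2 (5.93 against 5.91 on old replicate 1), and the dim second probe of Cblb on old replicate 3. Within the young group replicate 3 was the lowest array for 8 of the 10, against 27.6% of all genes, and replicate 2 the highest for 8, against 26.3%. Within the old group replicate 1 was the highest for 9, against 36.4% of all genes. With every gene set to a mean of 0 across the 6 arrays, the medians of the 10 genes were 0.08, 0.44 and -0.34 on young and 0.69, -0.25 and -0.36 on old replicates 1 to 3. Over all genes the same medians lay between -0.05 and 0.13.

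**Figure D4:**
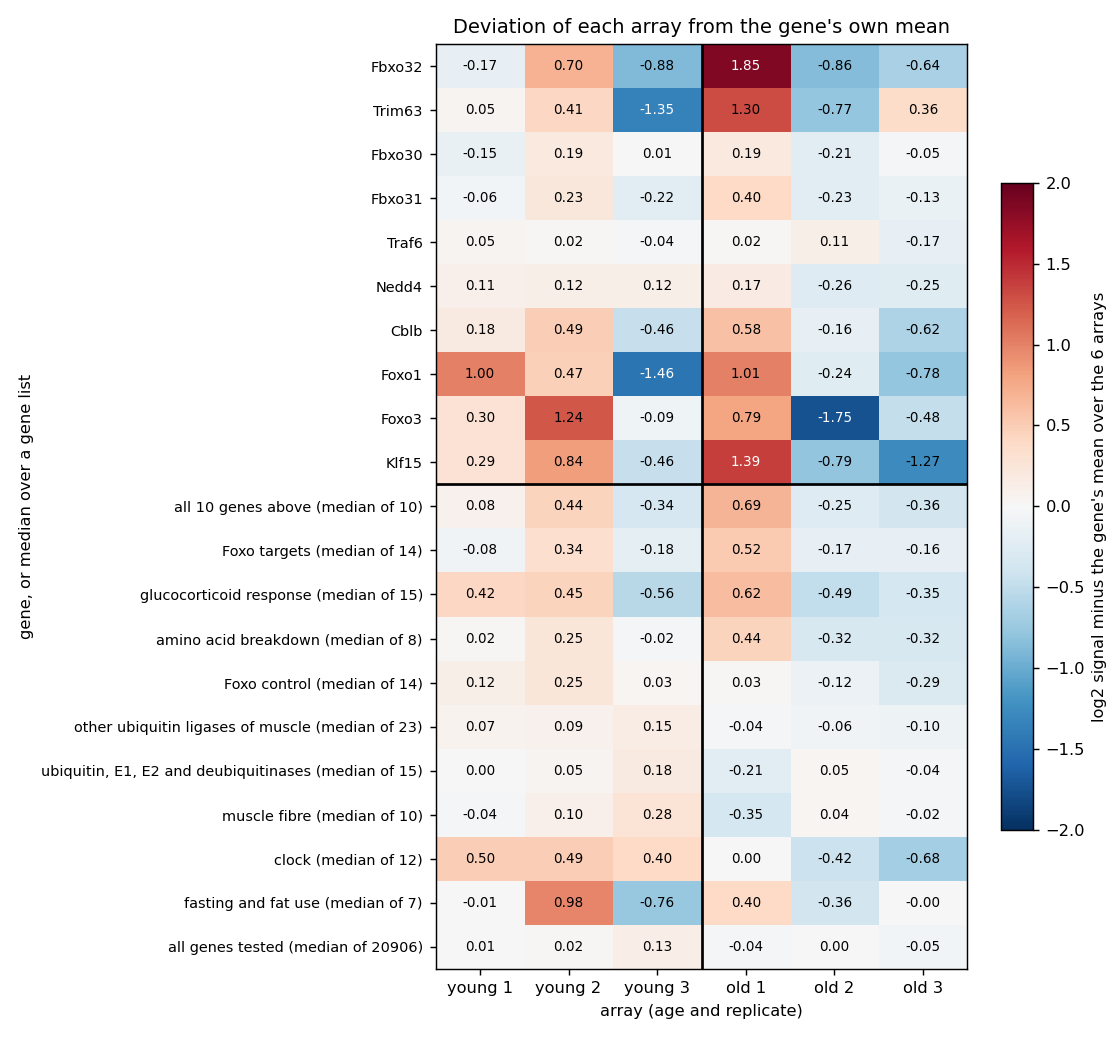
Deviation of each array from the gene's own mean over the 6 arrays (log2), for the 10 genes above the line and as the median over each named gene list below it. Old replicate 1 lies above the gene's mean in all 10 genes, and the lists of glucocorticoid-response genes (0.62) and Foxo targets (0.52) are high on the same array, while the muscle fibre genes are low on it (-0.35).

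Old replicate 1 also stood apart in array quality. Its mean negative-control signal was 61.3 against 51.9 to 55.1 on the other 5 arrays, and its spike-in slope was 0.840 against 0.925 to 0.941. Young replicate 3 had the lowest 75th percentile of signal, 243 against 302 to 368. The part of these differences in the values of the 10 genes was not tested. Without old replicate 1, limma's differences for the 9 genes still tested had a median of -0.37, and 1 of the 9, Trim63 at 0.10 ± 0.59, was positive. Fbxo32 was then -0.64 ± 0.45 (adjusted p = 0.490) and Klf15 -1.25 ± 0.40 (adjusted p = 0.188), and 0 of the 9 passed. Klf15 was the 1 gene of them with an unadjusted p under 0.05 (0.0189), where 18.3% of all genes met that threshold. Without young replicate 3 the median was -0.19 and 0 passed, with Fbxo32 at -0.15 ± 0.85 and Foxo1 at -0.74 ± 0.53. Old replicate 1 shared its slide row with all 3 young arrays, while old replicates 2 and 3 had a row of their own. With the row as a block, only old replicate 1 is set against the young arrays, and all 10 differences were positive (median 0.46, Fbxo32 at 1.97 ± 0.57), with 0 passing. With array weights, which gave old replicate 1 and young replicate 3 the lowest weights (0.45 and 0.51), 0 of the 10 differences were positive (median -0.40) and 0 passed. Foxo3 (-1.57 ± 0.56, unadjusted p = 0.0273 by limma) was then the 1 gene under 0.05 before adjustment, against 21.5% of all genes.

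Of the 10 genes, 5 had a spread between arrays of one age that few other genes reached. The pooled SD was 1.21 for Fbxo32, 1.12 for Foxo1, 1.103 for Klf15, 1.02 for Foxo3 and 0.98 for Trim63, against a median of 0.28 and a ninth decile of 0.65 over all genes tested. These SDs were larger than those of 97.0% (Trim63) to 98.6% (Fbxo32) of all genes. That of Foxo3 is uncertain, because the gene was well above background on 2 young arrays and 1 old array only. The SE of its difference fell from 0.65 to 0.20 with normexp background correction. At the other end Traf6 had an SD of 0.11, Nedd4 of 0.17 and Fbxo30 of 0.19, all below the median, and only 5.75% of genes were steadier than Traf6. Cblb lay between at 0.55 and Fbxo31, at 0.29, near the median.

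**Figure D5:**
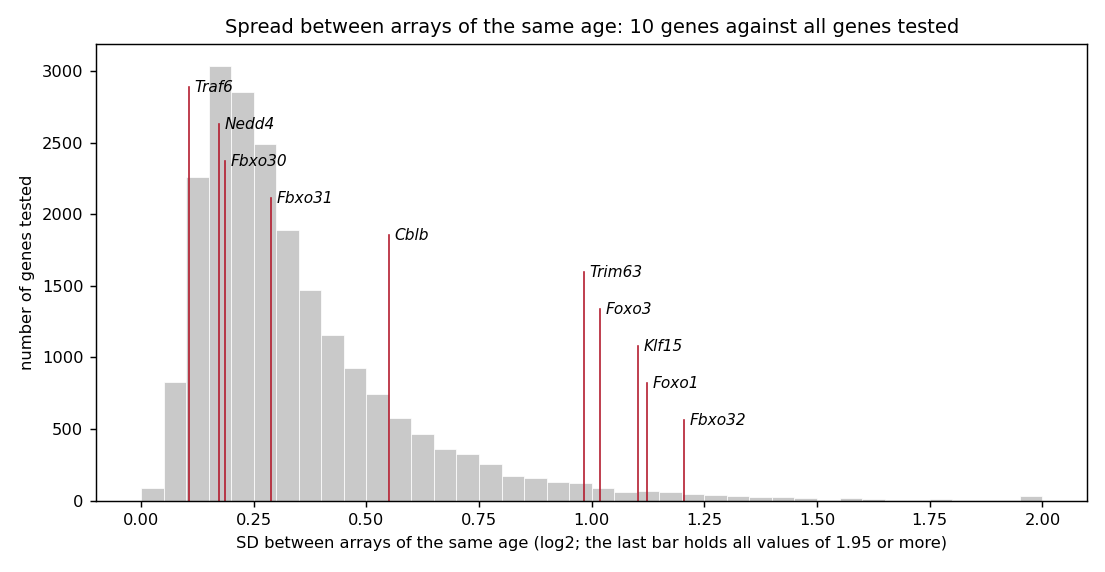
Pooled SD between arrays of the same age (log2) for all 20906 genes tested (grey bars, number of genes) and for the 10 genes (red lines, whose height has no meaning). Fbxo32, Foxo1, Klf15, Foxo3 and Trim63 lie between 0.98 and 1.21, in the sparse right tail, and Traf6, Nedd4 and Fbxo30 lie below the median of 0.28. Foxo3 was dim, and its SD is uncertain.

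The other genes of the pathway are given by list, with the array pattern of each. In each list named here 0 genes passed the adjusted threshold unless stated otherwise. Of 14 genes switched on by Foxo factors, 7 were highest on old replicate 1 and 5 lowest on young replicate 3, against 15.4% and 13.9% of all genes. Their median difference between the ages was 0.02, with 8 positive and 6 negative. The lowest p belonged to the cell-cycle inhibitor Cdkn1b (-1.14 ± 0.20, adjusted p = 0.101) and the mitochondrial superoxide dismutase Sod2 (-0.46 ± 0.16, adjusted p = 0.273). Sesn1, a sestrin that restrains mTORC1, is given because it was the named gene closest to Fbxo32 in pattern, as set out below. It had 2.57, 3.37 and 1.86 in young and 4.50, 1.70 and 1.71 in old replicates, so its order of arrays was close to that of Fbxo32. Others of the list differed, with Cdkn1b highest on young replicate 3 and Sod2 and Pdk4 highest on young replicate 2.

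Of 15 genes of the glucocorticoid response, 8 were lowest on young replicate 3 and 5 highest on old replicate 1, and the median difference was -0.20. The receptor itself, Nr3c1, had a difference of -0.29 ± 0.18 and an SD of 0.18 between arrays of one age. Mt2, a metallothionein, had 2.54 ± 0.72 (adjusted p = 0.214) and the kinase Sgk1 -0.84 ± 0.26 (adjusted p = 0.238). Ddit4 (REDD1), an inhibitor of mTORC1 picked here after its values were seen, had a wider range than any of the 10. Its values were 6.38, 7.51 and 2.70 in young and 7.21, 3.00 and 2.90 in old replicates. Young replicates 1 and 2 and old replicate 1 lay together at a level far above the other 3 arrays, and the difference between the ages was -1.16 ± 1.56 (adjusted p = 0.750).

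Upstream of the Foxo factors, the list of 14 genes of insulin, PI3-kinase and Akt signalling and the other Foxo genes had a median difference of -0.21, and 3 of the 14 were highest on old replicate 1. Igf1r, the receptor for IGF-1, had -0.47 ± 0.17 (adjusted p = 0.293). Akt1 and Akt2, the kinases that hold Foxo factors back, had 0.08 ± 0.23 and 0.07 ± 0.16. Pik3r1, the regulatory subunit of PI3-kinase and the gene of the list with the widest range, had 1.74, 1.55 and -0.51 in young and 2.51, 0.41 and 0.27 in old, and was picked after its values were seen. Among 8 enzymes of amino acid breakdown, several of them controlled by Klf15, the median was -0.21 and 4 were highest on old replicate 1. Bckdk, the kinase that restrains branched-chain oxidation, had -0.39 ± 0.18, and Prodh, which breaks down proline, had -0.90 ± 0.48.

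The rest of the ubiquitin machinery is given by the next 3 lists. Of 23 other ubiquitin ligases and ligase subunits of muscle, 4 were highest on old replicate 1, and their median difference was -0.07 within limits of -0.46 and 0.57. Cul3, a cullin scaffold, had -0.46 ± 0.14 (adjusted p = 0.237) and the HECT ligase Wwp1 -0.43 ± 0.15 (adjusted p = 0.270). Of 15 tested genes for ubiquitin, its activating and conjugating enzymes and deubiquitinases, 1 was highest on old replicate 1, with a median of -0.15. Their lowest p belonged to Usp2, a deubiquitinase with a daily rhythm (-0.77 ± 0.17, adjusted p = 0.147), and Uchl1 (1.04 ± 0.39, adjusted p = 0.302). Among 6 reported targets of Fbxo32 and Trim63 the median was -0.06, with 3 positive and 3 negative. The fast light chain Mylpf had 1.27 ± 0.72 (adjusted p = 0.453 by limma) and the myogenic factor Myod1 1.18 ± 0.61 (adjusted p = 0.413). Mylpf had 4.69, 4.30 and 1.74 in young and 4.73, 4.85 and 4.96 in old replicates, so young replicate 3 lay far below all other arrays.

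For each of the 6 genes that spanned at least 1 log2 unit over the arrays, the named genes closest in pattern were taken by the root mean square difference of centred values over the 6 arrays. Fbxo32 was closest to Sesn1 at 0.13, then to Vegfd at 0.26 and Fah at 0.27. Trim63 was closest to Itga5 (0.19), Slc39a14 (0.20) and Gab1 (0.25). Foxo1 was closest to Dennd3 (0.15), Kcna7 (0.21) and Zfp12 (0.24). Klf15 was closest to Gnmt (0.14), Pim3 (0.22) and Fam214a (0.23). Cblb, which spanned less, was closest to Coq8a (0.08), Rilpl2 (0.12) and Zrsr1 (0.12). The dim Foxo3 was closest to Ctla2b (0.25), Gadd45g (0.28) and Acot1 (0.28). A small value says only that 2 genes ranked and spaced the 6 arrays alike.

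The labelled tissue was checked through 10 genes of fast and mixed muscle fibres, which were all among the genes tested. Their median lay at 0.28 on young replicate 3 and -0.35 on old replicate 1, their highest and lowest arrays. All 10 differences were negative (median -0.21), as were those of 12283 of the 20906 genes tested (median of all -0.08). Tnni2, the lowest of the 10 at -1.44, had no value on old replicate 3. In bulk tissue fewer cells of a type and less RNA per cell cannot be told apart. Median differences were -0.60 for 7 slow fibre genes, 0.58 for 8 macrophage genes, -0.33 for 7 endothelial genes, -0.49 for 6 fibroblast genes, -0.85 for 6 Schwann cell genes, -0.31 for 4 adipocyte genes, 0.02 for 2 satellite cell genes and -1.21 for 3 erythroid genes. Signs were mixed within 5 of these lists. Positive and negative differences numbered 3 and 4 for endothelial, 7 and 1 for macrophage and 1 and 5 for fibroblast genes. They numbered 2 and 4 for Schwann cell and 1 and 1 for satellite cell genes. Prx, of the Schwann cell list, passed as lower. In the neutrophil list (median 4.05 over 4 genes) S100a8 and S100a9 passed as higher, at 4.79 ± 0.32 and 4.68 ± 0.30, while Camp of the same list had -0.42 ± 0.15 (adjusted p = 0.282). The array median of the neutrophil list was highest on old replicate 1 (2.56). That of the adipocyte list was level on old replicate 1, young replicate 1 and young replicate 3, at 0.22 on each. That of the satellite cell list was lowest on young replicate 3 (-0.31), where Pax7 had -0.57 and Cdh15 -0.06. The part of cell content in the values of the 10 genes was not tested. The 12 clock genes had a median of -0.87, with 8 lower and 2 higher at an unadjusted p under 0.05 and 0 passing the adjustment. The 9 immediate early genes, which respond to handling, had a median of 0.13, with 3 higher (Atf3, Junb and Fos, at 2.94, 1.46 and 1.01) and 1 lower (Nr4a1, at -1.25) at an unadjusted p under 0.05 and 0 passing the adjustment. The median was also 0.13 for the 7 genes of fasting and fat use. The medians of the fasting list followed the ligases in part, at 0.98 on young replicate 2, -0.76 on young replicate 3 and 0.40 on old replicate 1. The labels record neither feeding nor time of day, and the part of either was not tested.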

How the data were processed

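Per the file headers, Agilent Feature Extraction 11.0.1.1 produced the deposited scanner files and removed background and spatial trend from each spot's intensity; version 9.5 is named in the submitters' processing notes. In the authors' value table, used as an alternative, that intensity was scaled to the 75th percentile of all spots and rounded (100% of 62976 values per array were equal when recomputed this way).

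Control spots were dropped, as were 161 to 212 outlier spots on each array. Each log2 signal was set relative to the 75th percentile of the gene spots of its array, and repeat spots of 1 probe were averaged. Between 49.9% and 54.8% of gene spots were well above background and 0 were saturated. Precision is limited by having 3 arrays per age. Accessions of 28331 of 55681 probes matched RefSeq symbols (GRCm38.p6). The array grid names mm9, so its probes were given no coordinates. A probe (28012 in all) was used if it stood well above background on 3 or more of the 6 arrays, and the brightest such probe stood for its gene.

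The ages were compared in R 4.3.3 with limma 3.58.1 (lmFit, eBayes, two-sided), with Benjamini-Hochberg adjustment over all genes, and the fit was tested on simulated data. An exact permutation test of 3 against 3 cannot fall below 0.1 and was not used. Named genes are all 10 members, in each other list those past the threshold or else the 2 with the lowest p (for lists of other cell types and context the text gives medians in place of these), and the 3 named genes most alike in pattern. One gene that this rule names is not reported here. Pik3r1, Ddit4, Nr3c1, Akt1, Akt2, Camp, Atf3, Junb, Fos and Nr4a1 were added after their values were seen. The 10 genes and the lists were chosen with earlier results of these data known. Same-numbered old and young arrays deviated from their group means with correlations across genes of -0.06, -0.27 and 0.03. The highest correlation, 0.35, was between old replicate 1 and young replicate 2. The values gave no sign that the numbers pair the arrays, but 3 arrays per age cannot exclude it. Python 3.11.15, pandas 2.3.3 and matplotlib 3.10.9 made the tables and figures.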

Additional observations from a re-analysis of the deposited data

How the results depend on the processing

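Under all 17 alternatives 0 of the 10 genes passed, and 133 of 166 differences kept their sign. That count includes fits that left every tested difference unchanged, so that no sign could turn there. These were the fits with no filter, with signal above background on all arrays, with the trend and robust settings and with the replicate block. Foxo1 turned to 0.024 with quantile normalization, 0.0087 with normexp and 0.0021 with the authors' values. Median centring, which moved the median of all genes from -0.08 to -0.20, turned Fbxo31 to -0.097. The mean of probes turned Fbxo30 to 0.18, Fbxo31 to -0.10, Cblb to 0.65 and Foxo1 to 0.054. Array weights turned Fbxo32 to -0.55, Trim63 to -0.038 and Fbxo31 to -0.17, and moved Cblb to -0.50, Foxo1 to -0.68, Klf15 to -1.13 and Foxo3 to -1.57. The slide row as a block turned Fbxo30 to 0.17, Traf6 to 0.015, Nedd4 to 0.052, Cblb to 0.52, Foxo1 to 1.003, Foxo3 to 0.31 and Klf15 to 1.16. Leaving out 1 array moved Fbxo32 between -0.64 (without old replicate 1) and 0.72, Fbxo30 between -0.15 and 0.054, Fbxo31 between -0.17 and 0.15, Traf6 between -0.080 and 0.060, Cblb between -0.46 and 0.14, Foxo1 between -0.74 (without young replicate 3) and 0.49, and Klf15 between -1.25 (without old replicate 1) and 0.077. With 1 array left out Trim63 lay between 0.069 (without young replicate 3) and 1.13 (without old replicate 2), Nedd4 between -0.37 and -0.15 and, where tested, Foxo3 between -1.25 and -0.33. The filter removed Foxo3 without young replicate 1 or 2, without old replicate 1, and when a signal above background was asked of all arrays. The cause of these turns was not tested.

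Over all genes, the count of 52 became 8 with no filter, 32 when a signal above background was asked of all arrays, 225 with array weights and 5 with the replicate block. With the block 0 of the 10 genes passed, and the values gave no sign that the numbers pair the arrays. Leaving out 1 array gave 1 to 182 genes, namely 9, 8 and 12 without young replicates 1 to 3 and 182, 6 and 1 without old replicates 1 to 3. Of the calls, 40 of 52 were higher in old muscle, against 25 of 39 with median centring, 40 of 66 with normexp, 22 of 43 with the slide row as a block, 144 of 225 with array weights and 86 of 182 without old replicate 1.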
